A study of Gallus gallus with 10 samples.

Results

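The circadian clock genes measured in chicken abdominal fat are described here bird by bird. They are the 10 genes CLOCK, NPAS2, PER2, PER3, CRY1, CRY2, NR1D2, RORA, BHLHE40 and TEF, taken as every probe set of the deposited value table that the array annotation assigns to 1 of these symbols alone. The rule gave 33 of 38439 probe sets, and 10 of the 13009 genes that the annotation names, with 2 to 6 probe sets for each gene. The rule goes by gene symbol and uses no measured value.

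The samples were abdominal fat of 10 male Arbor Acres broilers killed at 7 weeks (49 days), 5 of a fat line and 5 of a lean line. The lines had been selected in opposite directions on abdominal fat percentage and on very low density lipoprotein in plasma. No transgene or drug treatment is named for either. All birds were raised with free access to a corn and soybean diet. They were weighed after a fast and then killed, so the fat came from fasted birds. Those used had the highest abdominal fat percentage in the fat line and the lowest in the lean line, so neither group is a random draw from its line. RNA of each bird was hybridized to its own Affymetrix Chicken Genome Array, and each bird goes by its line and array number. The time of day at which each bird was killed is not given in the sources used here.

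The circadian clock is a feedback loop that cycles about once a day. CLOCK, or its relative NPAS2, pairs with BMAL1 and switches on the period and cryptochrome genes, whose proteins then block that pair. The same pair switches on REV-ERB repressors, which hold down the activators, while ROR receptors raise them, so activators and repressors peak at different times of day. In fat of mammals the loop runs within the fat cells and is tied to the timing of fat storage and release.

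The values are signals of the MAS5 algorithm, which combines the probes of a set into a linear intensity, scaled by the authors to a trimmed mean of 500.1 on each array. They come without detection calls, and signals of different probe sets cannot be set against each other as amounts of RNA. Fold changes are given on the log2 scale as fat line over lean line from limma, a moderated linear model, with the adjusted p taken by the Benjamini-Hochberg method over all 38439 probe sets. An exact permutation test (two-sided) over all ways to label 5 and 5 birds stands beside it, and the smallest p it can give is 0.0079. With 10 arrays the precision is limited. The mean signal was at or over the array's median of 214.6 for 26 of the 33 clock probe sets and under 100 for 2.

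One array stood apart from the rest. Fat line 4 had a mean r of 0.819 with the other birds, against 0.865 to 0.884 for the other 9, and its median signal was 276 against 186 to 234 in the others. The deposited scan records give 3 scan days. Day 3 held fat line 1, 2, 3 and 4 with lean line 3 and 5, and day 1 held fat line 5 with lean line 4. Day 2 held only lean line 1 and 2, so a scan day block takes no comparison of the lines from it. The lines were therefore unevenly spread over the days. Fat cell genes such as FABP4, the fatty acid carrier of fat cells, were among the brightest probe sets, with means of 49673 in the fat line and 50480 in the lean line. Fewer cells of a type and less RNA per cell cannot be told apart in such bulk tissue.

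Between the lines, no clock gene passed the test: the adjusted p was under 0.05 for 0 of the 33 probe sets, and also for 0 of all probe sets (0.0% called), with limma. The smallest adjusted p was 0.431 among the clock probe sets and 0.211 on the array. SAM, a permutation method, called 0 as well. It was run on all 10 birds and all probe sets. It is thus not a repeat of the study's screen, which left out 1 fat line bird and probe sets called absent. The labels do not say which array that bird is. The signals the study prints for it are those of fat line 2 for FABP4 (57201) and LPL (25855). For CD74 (38875) they are those of fat line 4, and for LBFABP (32.6) those of fat line 3. For CD74 the study also prints signals of lean line 4 (36116) and lean line 5 (38191) under fat line birds. The bird left out was therefore not identified here. At an unadjusted limma p under 0.05, 5 of the 33 were higher in the fat line and 0 lower. These 5 were 4 probe sets of NR1D2 and 1 of PER2. Of all probe sets 2835 had such a p (7.38%), 3.38% higher and 3.99% lower. The fold was positive for 20 of the 33 probe sets, against 44.3% of all, and for 5 of the 10 genes by their brightest probe set. The median log2 fold was 0.16 over the 33 clock probe sets and 0.06 over the 10 genes, beside -0.05 over all probe sets.

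**Figure D1:**
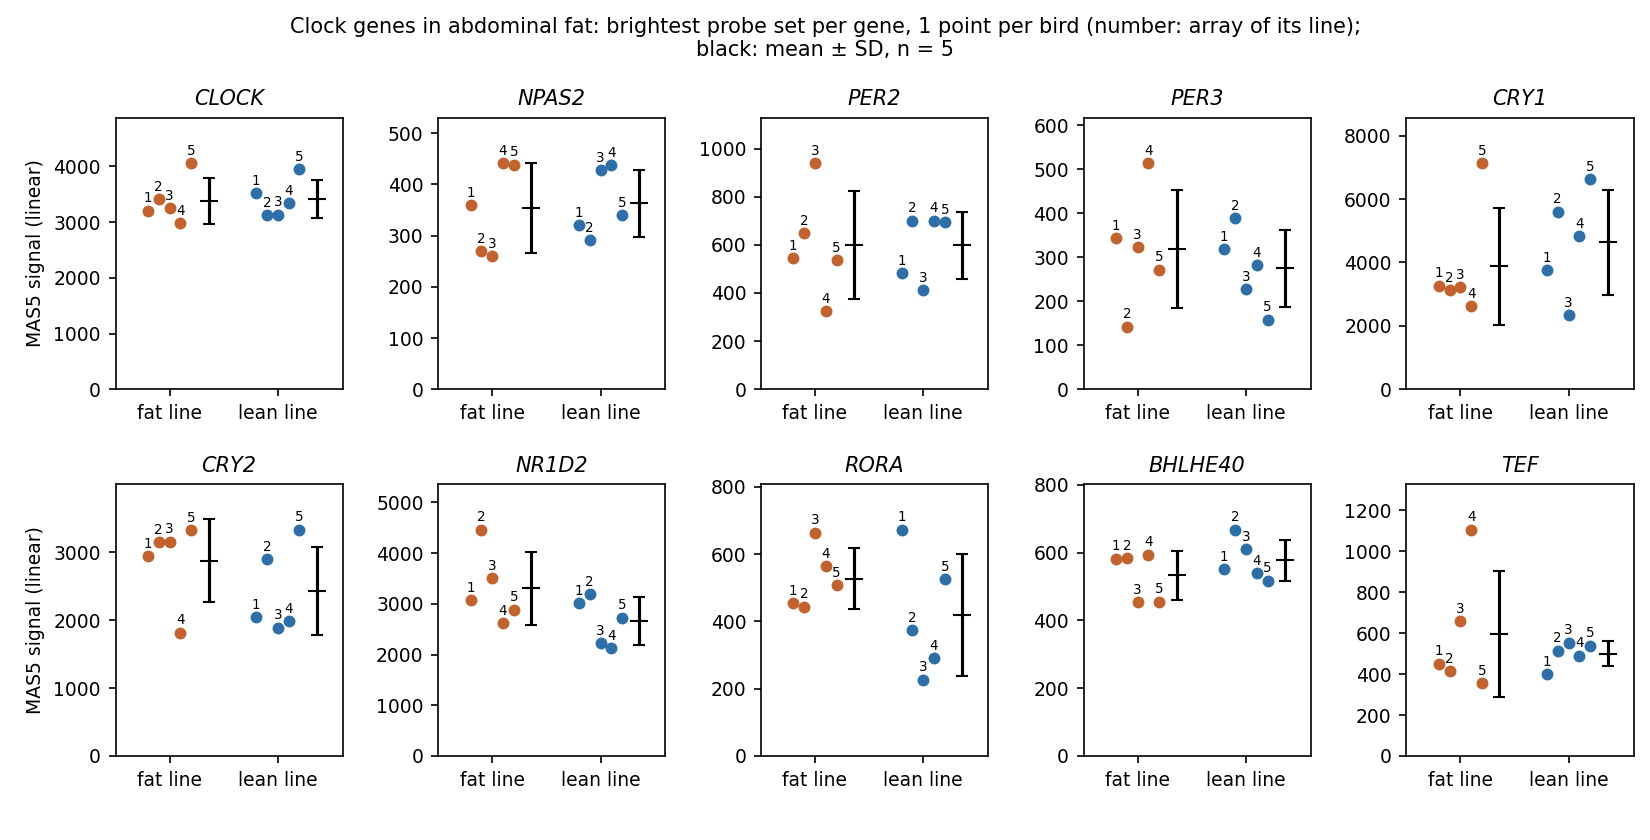
Linear MAS5 signal of the brightest probe set of each clock gene, with 1 point per bird (its array number above it), fat line in orange and lean line in blue, and the mean ± SD of 5 birds in black. The lines overlapped in all 10 genes, and CRY1 of fat line 5 (7140) and TEF of fat line 4 (1105) lie far above the other birds of their line.

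NR1D2 had the most even difference between the lines. It encodes REV-ERB beta, a nuclear receptor that represses BMAL1 and many genes of lipid metabolism in mammals. Its 5 probe sets were all higher on average in the fat line, by 1.24 to 1.58-fold. None passed the adjustment.

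The probe sets are numbered from the brightest by mean log2 signal. On NR1D2 probe set 2 the fat line birds 1 to 5 had signals of 3139, 2706, 3432, 2382 and 2865. The lean line birds 1 to 5 had 2229, 1949, 1544, 2332 and 2107 on the same probe set. Every fat line bird was above every lean line bird, fat line 4 only just so. The mean was 2905 ± 402 in the fat line and 2032 ± 308 in the lean line (SD, n = 5 each), which gives a log2 fold of 0.52 ± 0.15 (SE) or 1.43-fold (95% interval 1.15 to 1.79; limma adjusted p = 0.431, exact p = 0.00794).

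On NR1D2 probe set 5 the signals were 584, 665, 840.0, 844 and 560.0 in fat line 1 to 5. They were 493, 501.5, 347.5, 396 and 460.4 in lean line 1 to 5. Again the lines did not overlap, and fat line 4, often the lowest fat line bird for this gene, was the highest here. The mean was 699 ± 137 in the fat line and 439.7 ± 66.2 in the lean line (SD, n = 5 each), which gives a log2 fold of 0.66 ± 0.20 (SE) or 1.58-fold (95% interval 1.18 to 2.12; limma adjusted p = 0.456, exact p = 0.00794).

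The brightest NR1D2 probe set had 3078, 4463, 3500.2, 2623 and 2884 in fat line 1 to 5. Its signals were 3019, 3193, 2225, 2132 and 2726 in lean line 1 to 5. Fat line 1, 4 and 5 lay within the range of the lean line, and fat line 2 was the highest of all. The mean was 3309.5 ± 719.8 in the fat line and 2659 ± 470.3 in the lean line, which gives a log2 fold of 0.31 ± 0.17 (SE), at a limma adjusted p of 0.744 and an exact p of 0.127.

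On NR1D2 probe set 3 the fat line had 1529.9, 1986, 1880.1, 859 and 1389.9, and the lean line 1106, 1244, 953, 682 and 1022, for birds 1 to 5. Only fat line 4 lay within the range of the lean line. The log2 fold was 0.58 ± 0.23 (SE), at a limma adjusted p of 0.598 and an exact p of 0.0635. NR1D2 probe set 4 had 861, 801.5, 941, 497 and 493 in the fat line and 479.9, 612, 362, 409 and 527 in the lean line. Fat line 4 and 5 were among the lean line birds, and the log2 fold was 0.56 ± 0.24 (SE), at a limma adjusted p of 0.647 and an exact p of 0.0714.

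The 5 probe sets of NR1D2 varied together over the birds, with Pearson r between 0.54 and 0.90 for log2 signals (n = 10), so they are not independent readings. Without fat line 4 the log2 folds were 0.39, 0.59, 0.77, 0.68 and 0.59 for probe sets 1 to 5, and the adjusted p were 0.253 to 0.424. The brightest gave 0.19 without fat line 2. Among the 6 birds of scan day 3 (4 fat line, 2 lean line) the log2 folds were 0.44 to 0.86. With scan day as a block they were 0.44 to 0.76.

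**Figure D2:**
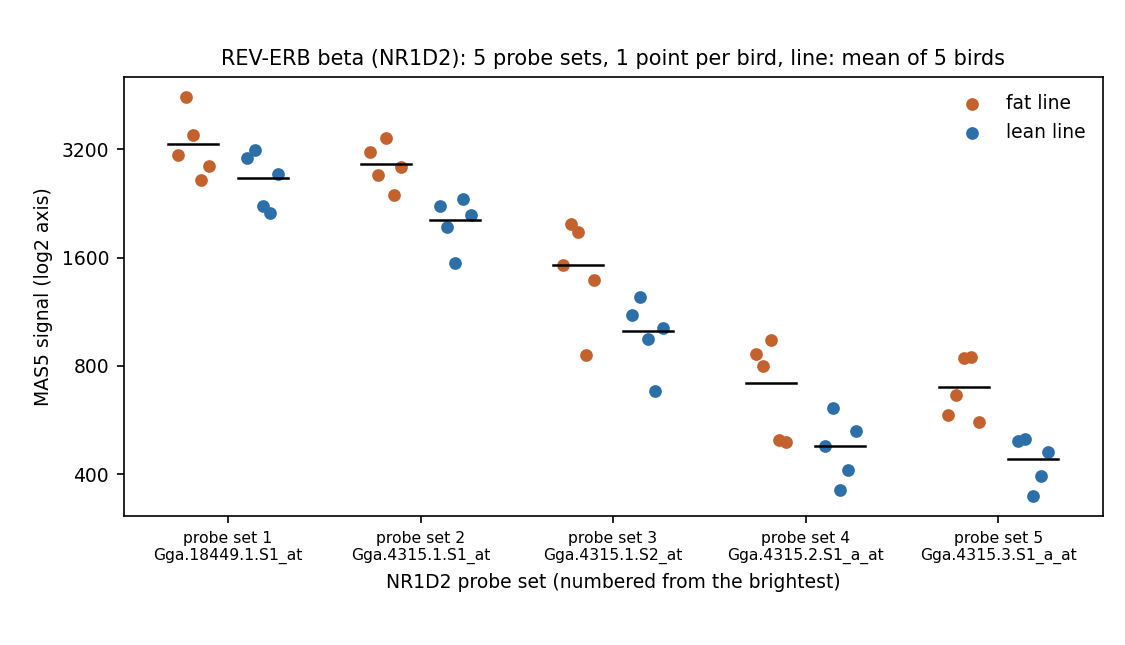
MAS5 signal (log2 axis) of the 5 NR1D2 probe sets, with 1 point per bird, fat line at the left of each pair and lean line at the right, and a line at the mean of 5 birds. The fat line mean is the higher one for each probe set, and the lines do not overlap for probe sets 2 and 5.

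Non-overlap of this kind was counted for all probe sets. Every fat line bird was above every lean line bird for 0.705% of the 38439, and for 3 of the 33 clock probe sets, of which 2 are of NR1D2 and 1 of PER2. The opposite order was found for 0.687% of all probe sets and 0 clock probe sets.

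Genes of other tissues and of fat cells also differed in level between these birds. Their part in the NR1D2 result and in the balance of the clock arms below was not tested. Of 10 fat cell markers, 8 were higher in the fat line and 2 lower (median log2 fold 0.32). PPARG, the nuclear receptor that drives fat cell formation, averaged 5149 ± 1106 in the fat line and 3389.5 ± 785.2 in the lean line (log2 fold 0.61, limma adjusted p = 0.458). ADIPOQ, 1 of the 2 lower markers, averaged 8131.5 ± 2694.9 in the fat line and 11664 ± 1307 in the lean line (log2 fold -0.58, limma adjusted p = 0.536). All 10 measured skeletal muscle markers were lower in the fat line (median log2 fold -2.18), with a summed signal of 1133 to 35714 in the fat line and 2205 to 127641 in the lean line. The 7 measured smooth muscle markers were all lower (median -1.10), with sums of 10889 to 17375 in the fat line and 15646 to 64224 in the lean line. The 2 muscle lists share DES (log2 fold -2.31), so their counts are not fully separate. Of 10 liver markers 9 were lower (median -2.01), with sums of 13229 to 39064 in the fat line and 18929 to 75245 in the lean line. Of 7 intestine markers 6 were lower (median -1.46), with sums of 674 to 1074 in the fat line and 791 to 5175.5 in the lean line. Of 3 measured red cell markers 2 were lower (median -0.93), and all 6 measured cell cycle markers were lower (median -0.46). Of 6 endothelial markers 5 were higher and 1 lower (median 0.19). Of 8 macrophage and leukocyte markers 5 were higher and 3 lower (median 0.07). Of these lists 0 genes passed the adjusted threshold. No defining marker was listed at 0. Albumin (ALB), made by the liver, was at 123 to 289.8 in the fat line and at 83.8 to 26026 in the lean line, high in lean line 1, 4 and 5. ACTA1, the actin of skeletal muscle, was at 16142 in fat line 2 and at 386 to 757 in the other fat line birds. In the lean line it was at 880 to 41361, highest in lean line 5 and next in lean line 3 (24917). The mean log2 deviation of the skeletal muscle markers was 2.29 in fat line 2 and negative in the other fat line birds. It was 3.4 in lean line 3, 3.85 in lean line 5 and negative in the other lean line birds.

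The activator CLOCK, a transcription factor with acetyltransferase activity in mammals, was the steadiest bright clock gene. Its brightest probe set had 3204, 3405, 3250.1, 2978 and 4061 in fat line 1 to 5. In lean line 1 to 5 it had 3514, 3128, 3133, 3342 and 3947.5. Bird 5 was the highest in both lines, and the lines overlapped throughout. The highest bird was only 1.36 times the lowest, with means of 3379.5 ± 410.6 in the fat line and 3413 ± 339 in the lean line (SD, n = 5 each). The log2 fold was -0.02 with a 95% interval of -0.30 to 0.26 (limma adjusted p = 0.988, exact p = 0.841). The dimmer CLOCK probe set had a log2 fold of 0.20 (limma adjusted p = 0.832) and did not follow the first over the birds (r = -0.15, n = 10).

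NPAS2, which can take the place of CLOCK in the pair with BMAL1, varied more from bird to bird than CLOCK. On its brighter probe set, fat line 1 to 5 had 359, 270.0, 259.9, 442 and 438. Lean line 1 to 5 had 320.5, 291, 428, 437 and 339.8. Each line held high birds (fat line 4 and 5, lean line 3 and 4) and low birds (fat line 2 and 3, lean line 2). The means were 353.9 ± 87.7 in the fat line and 363.3 ± 65.5 in the lean line, and the log2 fold was -0.06 with a 95% interval of -0.58 to 0.46 (limma adjusted p = 0.979, exact p = 0.810). The other probe set gave -0.05, and the pair had r = 0.66 over the 10 birds. On it fat line 4 (523) and lean line 4 (553) stood clear of the other 8, at 187 to 363.

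PER2, a period gene whose protein enters the nucleus with the cryptochromes and blocks CLOCK, was read by 6 probe sets that did not move together (r of the 15 pairs between -0.32 and 0.61). The brightest had 546, 648, 941, 325.5 and 537 in fat line 1 to 5, and 482, 700.1, 410.5, 701 and 695 in lean line 1 to 5. Fat line birds were both the highest (3) and the lowest (4). The means were 599 ± 224 in the fat line and 598 ± 141 in the lean line, which gives a log2 fold of -0.04 ± 0.27 (SE), at a limma adjusted p of 0.984 and an exact p of 0.913.

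PER2 probe set 3 had 312.5, 249, 316.5, 435 and 327 in fat line 1 to 5. It had 224, 208, 22.6, 232 and 131 in lean line 1 to 5. The lines did not overlap, but lean line 3 was far below the rest. The log2 fold was 1.36 ± 0.54 (SE), at a limma adjusted p of 0.614 and an exact p of 0.00794, and 0.74 without lean line 3. On scan day 3 alone, where lean line 3 is 1 of 2 lean line birds, it was 2.57. The dimmest 2 PER2 probe sets had folds of the opposite sign, at -1.03 (mean 98.4 in the fat line and 180.5 in the lean line, exact p = 0.0635) and -1.56 (mean 91.3 in the fat line and 131.7 in the lean line, exact p = 0.135). Both are dim, and with signals under 100 set to 100 the last was -0.08, while without fat line 4 it was -2.26. No single direction for PER2 could be read from its probe sets.

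PER3, the other period gene measured, had 343, 142, 322, 514 and 272 in fat line 1 to 5 on its brightest probe set. It had 318, 389, 228, 281 and 158 in lean line 1 to 5. The lines overlapped widely, and the highest and the lowest of the 10 birds, 3.62-fold apart, were both of the fat line (4 and 2). The means were 319 ± 134 in the fat line and 274.8 ± 87.5 in the lean line, which gives a log2 fold of 0.16 ± 0.35 (SE), at a limma adjusted p of 0.953 and an exact p of 0.667. The other 3 probe sets gave 0.08, 0.62 and 0.85, the last at a mean of 77.7 over the 10 birds, and r between the probe sets was 0.18 to 0.50.

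CRY1, a cryptochrome and a strong repressor of the CLOCK and BMAL1 pair in mammals, varied about 3-fold over the birds. Its brightest probe set had 3265, 3123, 3219, 2626 and 7140 in fat line 1 to 5. It had 3766, 5597.5, 2327, 4831 and 6634 in lean line 1 to 5. Fat line 1 to 4 and lean line 3 were low and lean line 1 just above them, while fat line 5 had the highest signal of all. The means were 3875 ± 1843 in the fat line and 4631 ± 1661.5 in the lean line, which gives a log2 fold of -0.27 with a 95% interval of -0.88 to 0.34 (limma adjusted p = 0.881, exact p = 0.460). It was -0.52 without fat line 5, -0.50 without lean line 3 and -0.12 without lean line 5, and 0.02 as the mean over all probe sets of the gene. A dimmer probe set of the same gene followed it (r = 0.86, n = 10) with a log2 fold of -0.16, whereas the dimmest, at a mean of 103, gave 0.50 and r of -0.43 and -0.12 with the other 2.

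CRY1 also moved with scan day. The 6 birds of day 3 averaged 3532 and the 4 birds of days 1 and 2 averaged 5334, a difference of log2 means of -0.65. With scan day as a block the log2 fold between the lines was -0.11, and on day 3 alone -0.37. The other clock genes differed by 0.12 or less between the days in log2 mean, apart from TEF (0.43, higher on day 3) and PER3 (-0.28). The birds of day 3 were read on a different scanner from those of days 1 and 2. The ratio of the 3' to the 5' control signal, a measure of RNA quality, also differed. For GAPDH it was 0.92 to 1.29 on day 3 and 1.36 to 1.5 on days 1 and 2. For actin it was 1.55 to 2.05 on day 3 and 2.28 to 3.09 on days 1 and 2. The scan of lean line 4 was marked as stopped. The part of these in the differences between scan days was not tested.

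CRY2, the second cryptochrome, had 2939, 3149, 3153, 1814 and 3325 in fat line 1 to 5 on its brightest probe set. It had 2040.4, 2901, 1890.5, 1984 and 3332 in lean line 1 to 5. The fat line birds were high except for number 4, which had the lowest signal of all, and lean line 2 and 5 lay near the level of the other fat line birds. The means were 2876 ± 609 in the fat line and 2430 ± 648 in the lean line, which gives a log2 fold of 0.25 with a 95% interval of -0.18 to 0.68 (limma adjusted p = 0.833, exact p = 0.405), and of 0.41 without fat line 4. The other probe sets of CRY2 gave 0.12 and 0.20 (r between probe sets 0.38 to 0.93).

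RORA, the receptor that opposes REV-ERB at shared sites, had 454, 444, 663, 564 and 508 in fat line 1 to 5. It had 673, 374, 227, 291 and 526 in lean line 1 to 5. The fat line birds lay close together and the lean line birds spread about them, with number 1 the highest of all 10 and number 3 the lowest. The means were 526.8 ± 90.1 in the fat line and 418 ± 181 in the lean line, which gives a log2 fold of 0.43 ± 0.28 (SE), at a limma adjusted p of 0.781 and an exact p of 0.214. The log2 fold was 0.23 without lean line 3 and 0.63 without lean line 1. The second RORA probe set gave 0.28 and followed the first (r = 0.84).

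BHLHE40, also called DEC1, competes with CLOCK and BMAL1 for their sites. It had 582, 583, 453, 593 and 455 in fat line 1 to 5 and 551, 667.5, 609, 539.8 and 516.5 in lean line 1 to 5. Its range was narrow, with a highest bird 1.47 times the lowest, and a log2 fold of -0.12 ± 0.18 (SE), at a limma adjusted p of 0.926 and an exact p of 0.341. The other 3 probe sets gave 0.18, -0.16 and -0.18, and no 2 of the 4 had r over 0.53.

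TEF, an output factor that the activators switch on and that drives daily rhythms of further genes, had 450.2, 414, 657, 1105 and 354 in fat line 1 to 5. It had 399.7, 514, 553, 489.5 and 539 in lean line 1 to 5. Fat line 4 was well above the other 9 birds, and the other 4 fat line birds ran from below to above the range of the lean line. The means were 596 ± 306.5 in the fat line and 499.1 ± 60.7 in the lean line (log2 fold 0.14, limma adjusted p = 0.950, exact p = 0.738). Without fat line 4 the log2 fold was -0.12. The other TEF probe set had a mean of 35.7, near the bottom of the array.

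**Figure D3:**
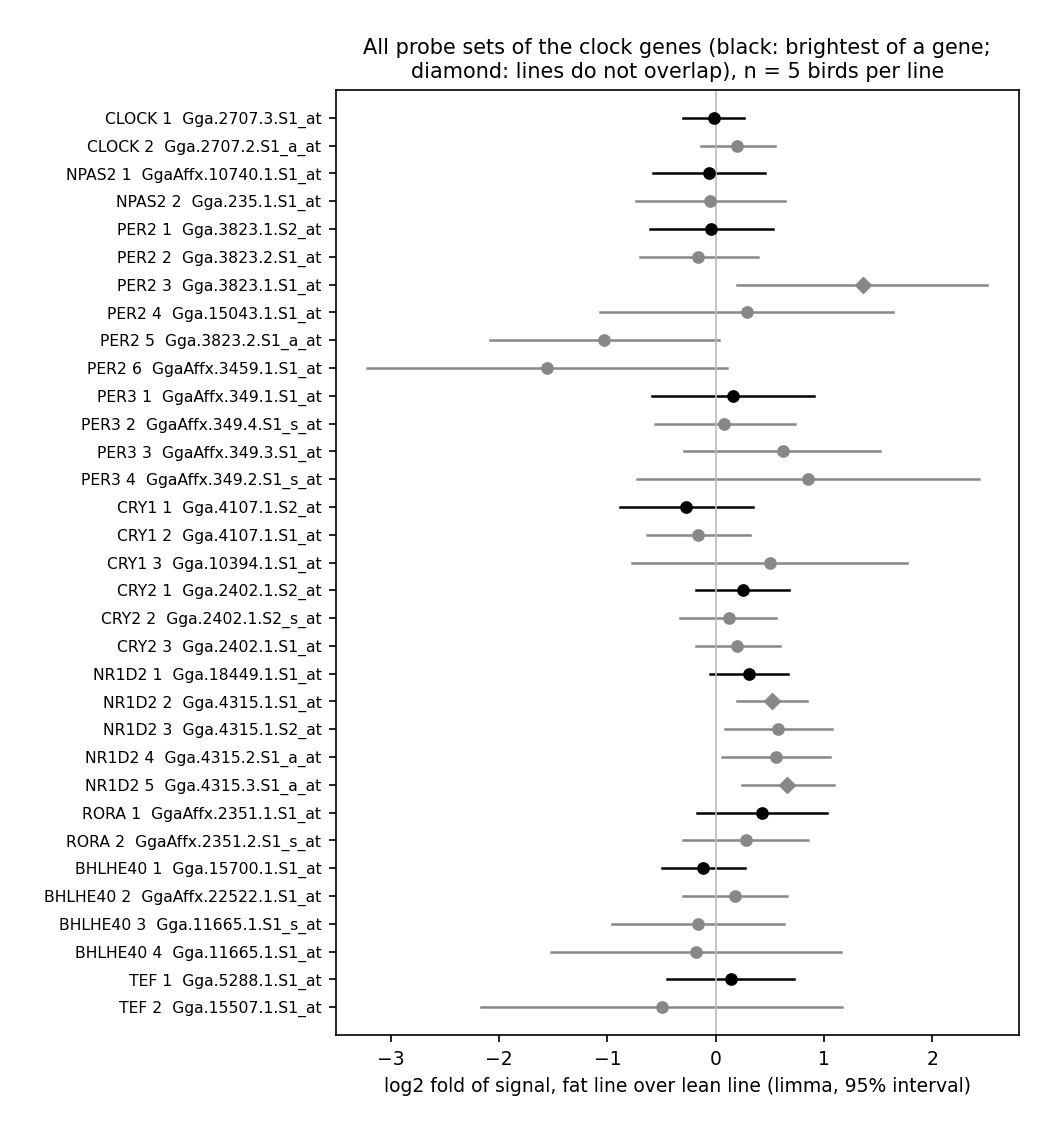
Log2 fold of signal, fat line over lean line, with its 95% interval (limma, 5 birds per line) for the 33 clock probe sets, grouped by gene with the brightest of each gene on top in black. The intervals of 4 NR1D2 probe sets and 1 PER2 probe set (log2 fold 1.36) lie above 0, the diamonds mark the 3 without overlap between the lines, and PER2 has folds on both sides of 0.

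For each bird, the mean log2 deviation from the 10-bird mean was taken over the activators CLOCK and NPAS2 and over the 7 repressor and output genes PER2, PER3, CRY1, CRY2, NR1D2, BHLHE40 and TEF. Their difference, activators minus repressor and output genes, is called the balance. For short the 7 genes are called the repressors below, though TEF among them is an output factor and not a repressor. RORA belongs to neither arm and was left out. The balance is a description of each bird and carries no test.

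The balance was -0.04, -0.12, -0.42, 0.07 and 0.26 in fat line 1 to 5. In lean line 1 to 5 it was 0.08, -0.45, 0.39, 0.20 and 0.03. Lean line 2 and fat line 3 leaned most to the repressors, and lean line 3, fat line 5 and lean line 4 most to the activators, so both ends of the scale held birds of each line. The place of single birds depended on how the balance was formed. With the mean over all probe sets of a gene, lean line 3 was at 0.09, lean line 4 at 0.49 and lean line 1 at -0.19. With RORA counted as an activator, lean line 3 was at 0.04 and lean line 4 at -0.06. Fat line 3 and lean line 2 were the lowest in both of these forms too, at -0.33 and -0.32 in the first and at -0.15 and -0.48 in the second. With CRY1 left out, fat line 5 was the highest at 0.39, lean line 3 was at 0.32 and fat line 4 at -0.03. Fat line 3 (-0.50) and lean line 2 (-0.41) were again the lowest. In the main form, by the brightest probe sets, the mean was -0.05 ± 0.25 in the fat line and 0.05 ± 0.31 in the lean line (SD, n = 5 each). The difference of -0.10 is smaller than the spread within either line.

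The birds at the ends differed in which genes placed them there. In lean line 2 the activators were at -0.19 and the repressors at 0.26, with 6 of 7 repressor and output genes above their mean and TEF at -0.02. In fat line 3 PER2 stood 0.71 above and NPAS2 0.44 below its mean on the log2 scale. In lean line 3 the repressors were at -0.31, with CRY1 at -0.77, and the activators at only 0.09. Lean line 3 was also among the birds with high skeletal muscle signals. In fat line 5 the activators were high, at 0.29, while the repressors averaged 0.03, with CRY1 at 0.85 and TEF at -0.55.

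The activator arm averaged -0.02 ± 0.21 in the fat line and 0.02 ± 0.14 in the lean line. The repressor arm averaged 0.03 ± 0.09 in the fat line and -0.03 ± 0.21 in the lean line. On scan day 3 alone the balance averaged -0.12 in 4 fat line birds and 0.21 in 2 lean line birds, a difference of -0.33. The difference between the lines was -0.22 to -0.00 when each bird was left out in turn. Its sign turned with RORA counted as an activator (0.06), and it was -0.15 with CRY1 left out. Neither the time of killing nor the share of other tissue in each sample was tested as a source of these differences.

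**Figure D4:**
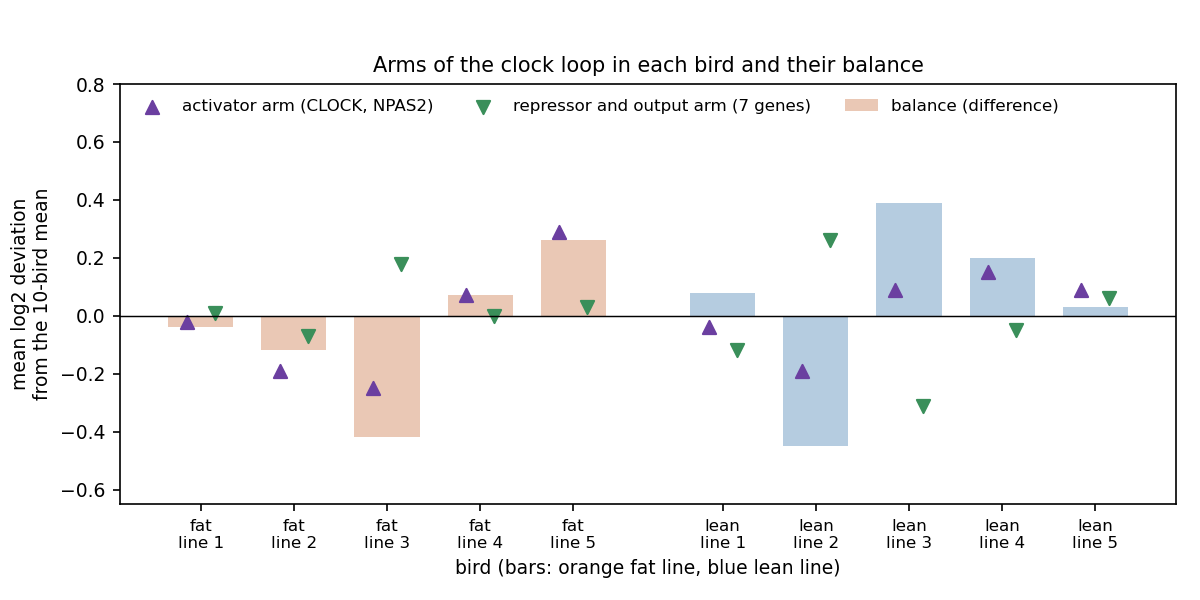
Mean log2 deviation from the 10-bird mean of the activator arm (triangles up) and of the repressor and output arm (triangles down) in each bird, and the balance between them (bars, orange fat line and blue lean line). The balance runs from -0.42 to 0.26 in the fat line and from -0.45 to 0.39 in the lean line, with no separation of the lines.

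The arms were also compared gene by gene over the birds. Of the 14 pairs of an activator with a repressor or output gene, 6 had a negative r, 3 of 7 with CLOCK and 3 of 7 with NPAS2. The activators CLOCK and NPAS2 did not vary together (r = 0.04, rho = -0.09, n = 10). The log2 SD of CLOCK was 0.17 in the fat line and 0.14 in the lean line, against 0.37 and 0.26 for NPAS2. The activator arm therefore followed NPAS2 more than CLOCK. Within the repressor and output genes 13 of 21 pairs were negative, so the 7 genes of that arm did not move together over the birds.

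Over all 45 pairs of the 10 genes, 0 passed an adjusted p under 0.05 by Pearson r or Spearman rho (permutation test, two-sided, 100000 resamples, adjusted over the 45 pairs), and 6 had an unadjusted p under 0.05 by r. The closest pair was NPAS2 with NR1D2, with r = -0.82 (permutation p = 0.00176, adjusted p = 0.0792) and rho = -0.81 (permutation p = 0.00722, adjusted p = 0.325). The birds low in NPAS2, fat line 2 and 3 and lean line 2, had the highest NR1D2 signals, and lean line 3 and 4, high in NPAS2, had the lowest. With the mean of each line taken out, r was -0.91 (permutation p = 0.00052, adjusted p = 0.0234). That permutation moved the deviations freely over all 10 birds, across the lines, so its p is approximate and may be too small. Without the 2 birds farthest from the median of NPAS2, r was -0.71, within scan day 3 -0.86 (n = 6), and with the scan-day means taken out -0.80. Leaving out each bird in turn gave -0.80 to -0.88. The relation was negative in all 10 combinations of an NPAS2 and an NR1D2 probe set, but from -0.04 to -0.82, and weakest with the NR1D2 probe sets that did not overlap between the lines.

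**Figure D5:**
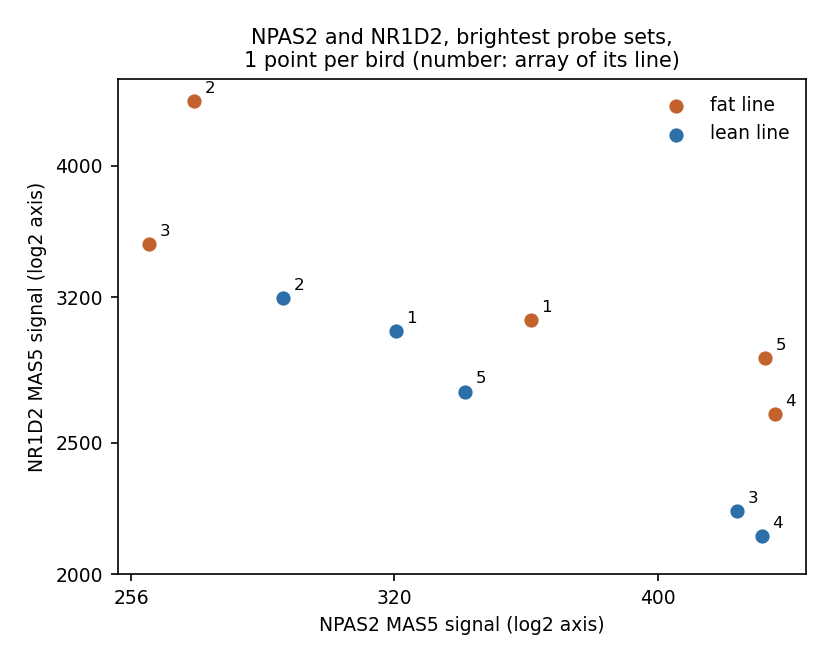
MAS5 signal of NR1D2 against that of NPAS2, brightest probe sets, both on log2 axes, with 1 point per bird numbered by array, fat line in orange and lean line in blue. NR1D2 is lower where NPAS2 is higher (r = -0.82 over 10 birds), and fat line 4 and 5 lie above lean line 3 and 4 at similar NPAS2 signals.

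CLOCK with CRY1 had r = 0.75 (permutation p = 0.0114, adjusted p = 0.256) and rho = 0.61. Without the 2 birds farthest from the median of CLOCK, fat line 5 and lean line 5, r was 0.30, so it rested largely on those birds. With the scan-day means taken out r was 0.74, and with the line means taken out 0.76. Within scan day 3, which holds lean line 5, it was 0.93 (n = 6). The remaining pairs with an unadjusted permutation p under 0.05 were PER2 with CRY2 (r = 0.66), NPAS2 with PER2 (r = -0.65), CRY2 with NR1D2 (r = 0.64) and CLOCK with BHLHE40 (r = -0.64), each with an adjusted p of 0.359. Within scan day 3 (n = 6) their r, in the same order, was 0.9, -0.91, 0.68 and -0.39. With the scan-day means taken out it was 0.68, -0.88, 0.71 and -0.58.

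BMAL1, the partner of CLOCK and not among the 10 genes, is annotated as ARNTL on this array. It had 396, 619.7, 433, 349 and 1192 in fat line 1 to 5 and 619, 531, 555, 666 and 796 in lean line 1 to 5. Fat line 5 was again the highest, as for CRY1, and fat line 1, 3 and 4 were below every lean line bird. The log2 fold was -0.23 (limma adjusted p = 0.911, exact p = 0.532). With ARNTL added to the activator arm the balance differed by -0.16 between the lines. ARNTL was also lower on scan day 3 (525 in 6 birds) than on days 1 and 2 (752 in 4 birds).

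Of 15 further core clock symbols listed, 7 were measured, 2 higher and 5 lower in the fat line. None passed the adjusted threshold, and the median log2 fold was -0.10. ARNTL is among these 7, and BMAL1, another symbol of the same gene, is among those not measured. NFIL3, a repressor of the D-box sites that TEF activates, had a log2 fold of -0.10, and HLF, a relative of TEF, 0.00. Of 18 kinases, phosphatases and ubiquitin ligases that act on clock proteins, 14 were measured, 8 higher and 6 lower, again with 0 called and a median of 0.02. USP2, a deubiquitinase, had the largest fold of this list at -1.25 (limma adjusted p = 0.729), with 76.7 ± 30.4 in the fat line and 228 ± 122 in the lean line. It was low in all fat line birds and in lean line 1 (24.7).

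Of 12 genes known to be under clock control in tissues of mammals, 10 were measured, 5 higher and 5 lower, with 0 called and a median log2 fold of 0.03. POR, the electron donor of cytochrome P450 enzymes, had a log2 fold of 0.43 (6830.5 ± 1378.9 in the fat line and 5103 ± 1208.5 in the lean line, limma adjusted p = 0.655). KLF10, a clock-driven repressor of sugar metabolism in mouse liver, had -0.27 (1892 ± 288 in the fat line and 2265 ± 157 in the lean line, limma adjusted p = 0.714, exact p = 0.0397). FKBP5, a glucocorticoid-induced chaperone, had -0.56 and PPARA, a fatty acid receptor, 0.17. Of the 6 genes of melatonin synthesis and reception, 2 were higher and 4 lower with 0 called. AANAT, which sets the rhythm of melatonin synthesis in the pineal gland, had -0.53 (limma adjusted p = 0.756) at signals of 156 to 396 in the fat line and 249 to 454.5 in the lean line.

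The probe sets outside the clock genes whose log2 signal followed the balance most closely were then listed. They were taken from 15766 with a single symbol and a mean signal of at least 200. Their r over the 10 birds is a description without a test. As the extremes of so many probe sets they can be high without any tie to the clock, and how high unrelated probe sets would run was not tested. The highest r, 0.91, was that of POC1A, ERC1, ENOPH1 and EDRF1, followed by PRKCZ and MAN1C1 (0.90), BTK (0.89), XPO4 (0.87), TBC1D1 and VPS13B (0.86). POC1A, a centriole protein, had 503 in lean line 3 and 470.5 in lean line 4, against 241 in fat line 3 and 243.5 in lean line 2. The lowest r, -0.90, was that of ATXN10, followed by GPR107, MYCBP2 and SH3GLB1 (-0.89), MCCC2 (-0.88), MAFK, PHTF2 and SLC47A1 (-0.87), ETNK1 (-0.86) and MGST3 (-0.85). MCCC2, an enzyme of leucine breakdown, had 722 in fat line 3 and 634 in lean line 2, against 392 in lean line 3 and 420.5 in lean line 4.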

How the data were processed

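Abdominal fat RNA of 10 birds was hybridized to 1 array each, and lines and numbers were taken from the labels. The intensity values used are MAS5 signals, deposited by the authors on a linear scale, scaled per array and without detection calls. No version of MAS5 is given with the deposited data, and the study's methods name an earlier release of Affymetrix Microarray Suite for normalization. The labels name Trizol for RNA extraction and the study's methods a lipid tissue kit. Of 38535 probe sets, 96 controls were left out. Symbols came from the array annotation: 27168 probe sets had 1, 177 several and 11094 none, and the 10 clock symbols matched current RefSeq symbols by gene ID.

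Log2 signals were compared with limma 3.58.1 in R 4.3.3 (lmFit, then eBayes with an intensity trend). Single probe sets were also compared by exact permutation (numpy 2.4.6, Python 3.11.15). The p of the correlations were adjusted with scipy 1.17.1. SAM was run with a delta of 0.8 and 100 permutations. The scripts were tested on simulated data. Each gene was represented by its brightest probe set. Named were all clock probe sets, up to 4 genes of smallest p in each list described, and the 10 probe sets at each end of likeness to the balance. Further list genes were given as background (FABP4, THRSP, PPARG, ALB, NFIL3, HLF, CD74). Members and lists were chosen with earlier results of these data known. Scan days and 4 wash runs came from the scan records. Alternatives were other scalings, floors and variance priors, blocks, scan day 3 alone, the brighter probe sets, each bird left out and other forms of the balance; the wash run block and the probe set and left-out-bird checks of NPAS2 with NR1D2 were added after seeing the data. Labels call the arrays biological replicates.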

Additional observations from a re-analysis of the deposited data

Results flagged for a closer look

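Within 1 line, 4 of 68 groups of 5 signals had a single bird far from the other 4 of its line, and chance alone marks about 5% of such groups. PER2 probe set 3 was at 22.6 in lean line 3 and at 131 to 232 in the other lean line birds. PER3 probe set 2 was at 409.3 in fat line 3 and at 248 to 285 in the other fat line birds. The brightest CRY1 probe set was at 7139.9 in fat line 5 and at 2626 to 3265 in the other fat line birds. The brightest CRY2 probe set was at 1814.3 in fat line 4 and at 2939 to 3325 in the other fat line birds.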

How the results depend on the processing

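The count of clock probe sets with an adjusted p under 0.05 was 0 in every alternative run. Over the array the count was 0, except when a bird was left out, where it was 0 to 2 (1 without fat line 2, 2 without fat line 4 and 2 without lean line 5). The log2 folds of NR1D2, RORA, CRY2 and BHLHE40 kept their sign in all alternatives of the brightest probe set. The sign turned in some alternatives for CLOCK, NPAS2, PER2, PER3, CRY1 and TEF. Scaling to the same median gave 0.08 for CLOCK, 0.04 for NPAS2 and 0.05 for PER2, and quantile normalization 0.00 for NPAS2. The mean over all probe sets gave 0.09 for CLOCK, 0.02 for CRY1 and -0.18 for TEF, the scan day block -0.02 for TEF, and scan day 3 alone 0.10 for PER2. Leaving out each bird in turn gave -0.09 to 0.04 for CLOCK, -0.15 to 0.05 for NPAS2, -0.23 to 0.16 for PER2, -0.04 to 0.42 for PER3, -0.52 to -0.12 for CRY1, 0.23 to 0.63 for RORA and -0.12 to 0.29 for TEF. The cause was not tested.

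The numbers 1 to 5 are shared by the lines, but same-numbered birds did not deviate together over the whole array (r from -0.136 to 0.063). Such an r cannot show whether they shared something that moved only some genes, and the labels do not say what the number stands for. With the replicate number as a block, 0 probe sets were called over the array, 0 clock probe sets, and the balance differed by -0.10. The balance difference was -0.23 with a scan day block and -0.17 with a wash run block. Without detection calls, the low signals of the dimmest PER2, PER3, CRY1, BHLHE40 and TEF probe sets cannot be told from background. Clock probe sets under the median signal were not in the fit of the brighter probe sets.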
